A study of Mus musculus with 16 samples.

Results

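General pluripotency genes are taken here as 10 genes chosen by name: Pou5f1, Sox2, Sall4, Utf1, Lin28a, Lin28b, Dppa4, Dppa5a, Tdgf1 and L1td1. All 10 were found in the count table of 46983 genes, and all 10 passed the filter on low counts, which left 12805 genes to test. The cells were 46C mouse embryonic stem cells (ESCs) of strain 129Ola, which express GFP from the Sox1 locus and were grown with LIF and knockout serum replacement on gelatin. They were transfected with RAM siRNA or with a non-targeting control siRNA and lysed 48 hr later in cycloheximide. From each culture 1 library was made from the cytoplasmic lysate (input) and 1 from pooled sucrose gradient fractions 17 to 22 (polysomes), which gave 4 groups of 4 libraries: input control, input RAM siRNA, polysome control and polysome RAM siRNA. All groups share the cell line, which is a single line, and siRNA lowers RAM without removing it. The study's legend for this experiment names a single RAM siRNA. Effects of lower RAM and effects of that sequence on other genes cannot be told apart here.

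The members were chosen as general genes of the ESC network, and whether each depends on the pluripotent state was not examined. Pou5f1 (Oct4) and Sox2 are transcription factors that bind DNA as a pair, and with Sall4, a zinc finger factor that recruits the NuRD complex, they keep ESCs undifferentiated. Utf1 and Dppa4 are chromatin proteins, while Lin28a, Lin28b, Dppa5a and L1td1 bind RNA, and Tdgf1 (Cripto) is a co-receptor for the growth factor Nodal at the cell surface. RAM is the activating subunit of RNMT, the enzyme that methylates the guanosine of the mRNA cap, to which the translation initiation factor eIF4E binds. The comparisons ask how the level of these transcripts, and their share of the polysome RNA, changed when RAM was lowered.

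Libraries held between 16647523 and 20147833 counts on genes. Levels are given as CPM (read counts scaled to a library of 1000000, adjusted by edgeR's TMM method over the 16 libraries), which are shares of a library, so a fall of all polysome RNA together cannot be seen in them. Ramac, the gene for RAM, had 10.1 to 11.6 CPM in input control and 2.67 to 3.17 CPM in input RAM siRNA, with a log2 fold change of -1.84 (SE, the standard error of the fit, 0.11, adjusted p = 7.24e-06, edgeR's quasi-likelihood test). In polysomes it had 6.61 to 14.6 CPM in control and 0.287 to 2.61 CPM in RAM siRNA, with an adjusted p of 0.128, and of 2.36e-05 with the replicate block. The labelled cell type was checked against 10 ESC markers outside the members, and all 10 had a mean of at least 1 CPM in every group. Of the 7 fibroblast markers, 3 had a mean of at least 1 CPM in input control (Thy1 at 7.36, Pdgfrb at 4.37 and Col1a1 at 1.096 CPM), and Col3a1 and Lum had no count there. In input control this cut was also met by 5 of 6 primitive endoderm, 5 of 7 neural and 4 of 5 formative or primed markers. It therefore does not set ESCs apart from these states. Same-numbered libraries deviated from their group means together, so each comparison was also fitted with the replicate number as a factor, called the replicate block below.

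The members covered a wide range of levels. Per kb of exon, which allows genes to be compared with each other, Dppa5a and Tdgf1 were highest and the LIN28 genes lowest. Exon length here counts all annotated exon bases of a gene, 2622 nt for Tdgf1 and 3174 nt for L1td1. The transcripts used for length further below have 1932 and 2547 nt, so the order and overlaps hold for exon length only. In input control Dppa5a stood at 1112 ± 43.1 CPM per kb (SD, n = 4 libraries here and below), Tdgf1 at 812 ± 73.9 and Pou5f1 at 216 ± 20.6. With exon length in this sense, these 3 levels did not overlap between libraries. Sox2 followed at 127 ± 7.78 CPM per kb and L1td1 at 118 (96.8 to 125), and the libraries of these neighbours overlapped. Utf1 at 63.4 ± 10.3 CPM per kb and Dppa4 at 55.2 ± 4.43 overlapped as well. Sall4 (42.2 ± 2.93 CPM per kb), Lin28a (20.4 ± 3.25) and Lin28b (3.93 ± 0.298) each lay apart from the gene above. In polysome control the order was Dppa5a, Tdgf1, Pou5f1, Utf1, Sox2, Dppa4, L1td1, Sall4, Lin28a and Lin28b, with Utf1 moving up and L1td1 down. There Dppa5a overlapped with Tdgf1, Utf1 with Sox2, Dppa4 with L1td1 and L1td1 with Sall4.

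**Figure D1:**
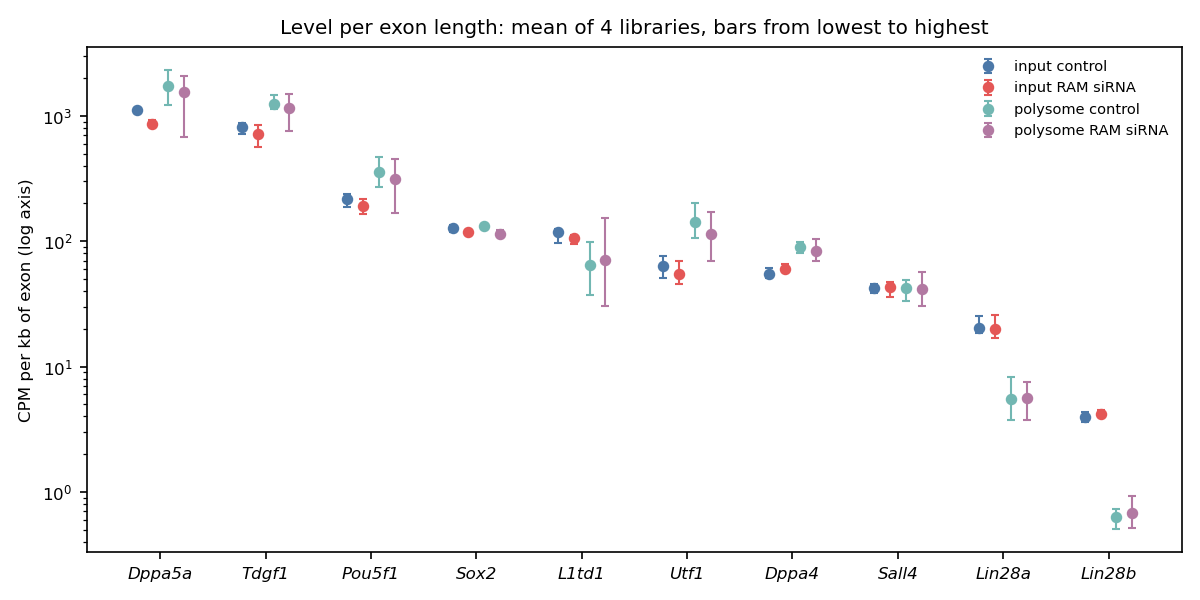
Level of each gene in CPM per kb of exon on a log axis, as the mean of 4 libraries in each of the 4 groups, with bars from the lowest to the highest library. Dppa5a stood at 1112 CPM per kb in input control and Lin28b at 3.93, and both LIN28 genes were lower in polysomes than in input.

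In input, RAM siRNA lowered 1 member, Dppa5a, and raised 0 in the fit without a replicate block. That fit ignores the deviations shared by same-numbered libraries. With the replicate block 5 members were lower (Pou5f1, Utf1, Dppa5a, Tdgf1 and L1td1), 1 was higher (Dppa4), and Sox2, Sall4, Lin28a and Lin28b did not pass. Of all tested genes, 5.94% were lower and 6.95% higher without the block, and 19.0% were lower and 20.3% higher with it. The median log2 fold change of the 10 members was -0.12 without the block, against 0.001 over all tested genes. In bulk RNA a lower level can come from less transcript per cell or from fewer cells that express the gene, and these cannot be told apart.

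Dppa5a, a KH domain protein that binds RNA, fell in every pair of same-numbered cultures. It had 713, 688, 700 and 651 CPM in input control replicates 1 to 4 and 570, 520, 530 and 525 CPM in input RAM siRNA. Each RAM siRNA library lay below each control library. Of tested genes, 18.0% showed such a separation in either direction. An exact permutation test (two-sided) gave p = 0.0286, which is the lowest value possible with 4 libraries on each side. The log2 fold change was -0.36 (SE 0.07), a fall by 22.2%, with an adjusted p of 0.00701 by edgeR's quasi-likelihood test without the block and 9.48e-07 with it. In a fit of all 16 libraries, which shares 1 spread between input and polysomes, the same log2 fold change of -0.36 had an adjusted p of 0.761.

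Pou5f1 had 492, 495, 421 and 532 CPM in input control and 423, 431, 369 and 485 CPM in input RAM siRNA. The ranges overlapped, yet all 4 pairs were lower with RAM siRNA, by 0.13 to 0.22 on the log2 scale. Its log2 fold change was -0.19 (SE 0.10, edgeR adjusted p = 0.231), and with the replicate block -0.19 (SE 0.04, adjusted p = 0.00113). Utf1, which is found on ESC chromatin, had 75.5, 80.3, 62.5 and 93.0 CPM in input control and 63.2, 66.1, 55.5 and 84.6 CPM in input RAM siRNA. Its libraries ran in the same order in both groups, with replicate 3 lowest and replicate 4 highest. The log2 fold change of Utf1 was -0.21 (SE 0.13, adjusted p = 0.332), and the block gave an adjusted p of 0.000867 by the same edgeR test.

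Tdgf1 had 2256, 2300, 2086 and 1873 CPM in input control and 2208, 2011, 1861 and 1487 CPM in input RAM siRNA, the highest CPM among the members. The pair of replicate 1 differed by only 0.03 on the log2 scale and that of replicate 4 by 0.33, in the same direction. The fit gave a log2 fold change of -0.17 (SE 0.12, edgeR adjusted p = 0.389), and an adjusted p of 0.00567 with the replicate block. L1td1, an RNA-binding protein derived from a LINE-1 element, had 392, 398, 307 and 398 CPM in input control and 351, 358, 302 and 346 CPM in input RAM siRNA. Replicate 3 was the lowest library of both groups, and there the pair differed by only 0.02 on the log2 scale. L1td1 had a log2 fold change of -0.14 (SE 0.10, edgeR adjusted p = 0.365) and an adjusted p of 0.0160 with the block.

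Dppa4, a chromatin protein that works with Dppa2, moved the other way. It had 90.2, 90.9, 84.3 and 102 CPM in input control and 94.1, 96.8, 101 and 108 CPM in input RAM siRNA. All 4 pairs were higher and the groups overlapped. Its log2 fold change was 0.12 (SE 0.08, edgeR adjusted p = 0.334), with an adjusted p of 0.0400 under the replicate block.

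Sox2 had 249, 278, 245 and 270 CPM in input control and 235, 251, 240 and 252 CPM in input RAM siRNA. Every pair was lower, by 0.03 to 0.15 on the log2 scale, but the log2 fold change of -0.09 (SE 0.07) did not pass the edgeR test without (adjusted p = 0.426) or with the block (adjusted p = 0.0887). Its 95% interval without the block ran from -0.26 to 0.08. Lin28b was higher in 4 of 4 pairs with a log2 fold change of 0.09 (interval -0.11 to 0.29, edgeR adjusted p = 0.507 without and 0.177 with the block). Sall4 (0.03, interval -0.19 to 0.26) and Lin28a (-0.03, interval -0.35 to 0.30) had log2 fold changes nearest to 0, and their pairs went both ways. Over the members, 6 were lower in all 4 pairs and 2 were higher in all 4, against 24.6% and 25.9% of tested genes.

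**Figure D2:**
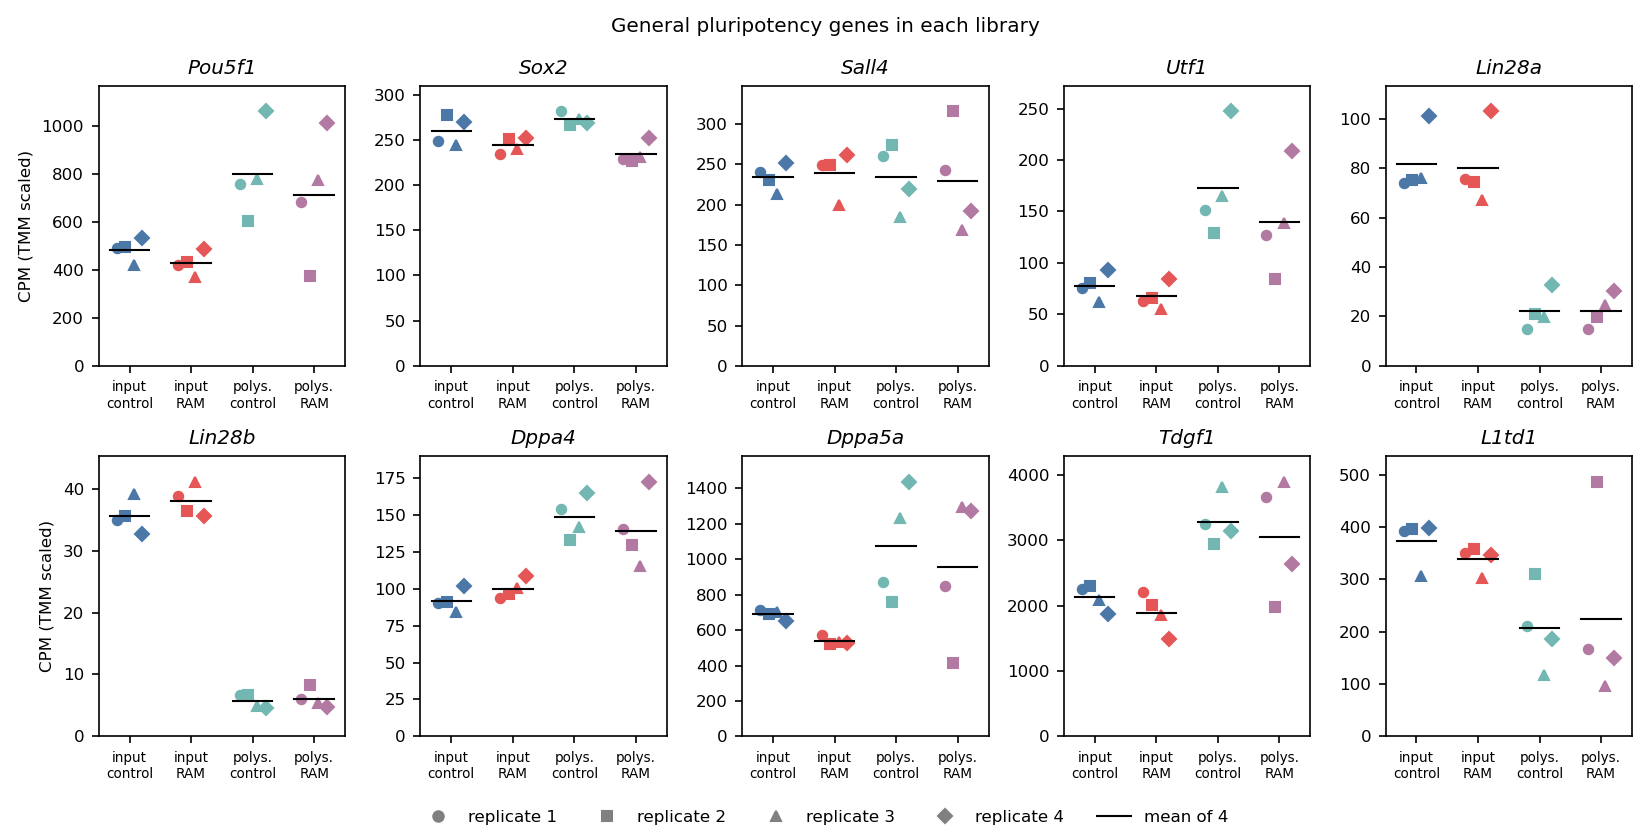
CPM of each gene in each of the 16 libraries, by group, with a marker for each replicate number and a line at the mean of 4. Dppa5a libraries of input RAM siRNA lie between 520 and 570 CPM, below all input control libraries, and polysome libraries spread more than input libraries, with replicate 2 of polysome RAM siRNA at 377 CPM for Pou5f1 and 487 CPM for L1td1.

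Marker levels moved in input as well. The summed level of the 10 ESC markers, none of them a member, was 2813 to 3020 CPM in input control and 2504 to 2676 CPM in input RAM siRNA. The markers did not all move together. Means of Alpl (85.4 to 113 CPM), Fbxo15 (360 to 370 CPM) and Klf2 (20.9 to 21.5 CPM) were higher with RAM siRNA, and those of the other ESC markers were lower. The 5 trophoblast markers summed to 24.6 to 29.2 CPM and 15.8 to 23.1 CPM, of which Tfap2c made up most, and the 7 fibroblast markers to 11.99 to 14.2 CPM and 15.3 to 18.2 CPM. Summed neural markers (74.97 to 85.7 CPM and 81.3 to 94.4 CPM) and primitive endoderm markers (821 to 1047 CPM and 784 to 1085 CPM, most of it Sparc) overlapped between the groups. Within these sums genes moved both ways. Primitive endoderm means were higher with RAM siRNA for Gata4 (0.507 to 0.637 CPM), Gata6, Pdgfra, Dab2 and Sparc (735 to 796 CPM). That of Lamb1 was lower (190 to 139 CPM). Of the neural means, Nes (27.7 to 37.3 CPM), Tubb3 and Sox1 were higher and Pax6 (12.4 to 8.785 CPM), Map2 and Zic1 lower. Markers of mesendoderm (15.1 to 17.6 CPM and 12.9 to 17.4 CPM) and of formative or primed cells (70.7 to 112 CPM and 72.4 to 104 CPM) overlapped too. Their part in the members' changes was not tested.

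In polysomes, 0 members were lower and 0 higher with RAM siRNA, without and with the replicate block. Of all tested genes 0.0234% were lower and 0% higher without the block, and 4.97% were lower and 9.68% higher with it. The members' log2 fold changes ran from -0.26 for Utf1 to 0.16 for L1td1, with a median of -0.05 against 0.06 over all tested genes. The spread between polysome libraries was wider than in input. The coefficient of variation of the 10 members had a median of 8.56% in input control and 9.28% in input RAM siRNA, and of 21.7% in polysome control and 29.2% in polysome RAM siRNA.

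Sox2 varied least there. It had 282, 267, 273 and 269 CPM in polysome control and 229, 227, 231 and 252 CPM in polysome RAM siRNA. The groups did not overlap, as was true of 6.56% of tested genes (p = 0.0286 by exact permutation, two-sided, again the lowest possible). The fitted log2 fold change was -0.17 (SE 0.14, edgeR adjusted p = 0.867 without and 0.343 with the block). Sox2 was the only one of the 10 members whose groups did not overlap in polysomes, and in input only Dppa5a showed this.

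Pou5f1 had 759, 603, 780 and 1061 CPM in polysome control and 683, 377, 774 and 1011 CPM in polysome RAM siRNA. All 4 pairs were lower, by 0.01 to 0.68 on the log2 scale, and replicate 2 gave the largest difference. Utf1 had 151, 129, 165 and 247 CPM in polysome control and 127, 84.7, 139 and 209 CPM in polysome RAM siRNA, lower in 4 of 4 pairs. The log2 fold changes were -0.12 for Pou5f1 (SE 0.31, edgeR adjusted p = 0.984) and -0.26 for Utf1 (SE 0.30, edgeR adjusted p = 0.948). With the block they were -0.18 (adjusted p = 0.422) and -0.29 (adjusted p = 0.110) by the same test.

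Dppa5a, lower in input, had 873, 756, 1232 and 1437 CPM in polysome control and 847, 417, 1297 and 1275 CPM in polysome RAM siRNA. The groups overlapped and 1 of 4 pairs was higher. There its log2 fold change came to -0.11 (SE 0.38), with a 95% interval from -1.03 to 0.81 that holds the value found in input. L1td1 had 211, 311, 118 and 186 CPM in polysome control and 167, 487, 97.0 and 150 CPM in polysome RAM siRNA. It was lower in 3 pairs and higher in that of replicate 2, where the log2 difference was 0.65. For the other members, Sall4, Lin28a, Lin28b, Dppa4 and Tdgf1, polysome pairs went both ways and log2 fold changes lay between -0.06 and 0.14.

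**Figure D3:**
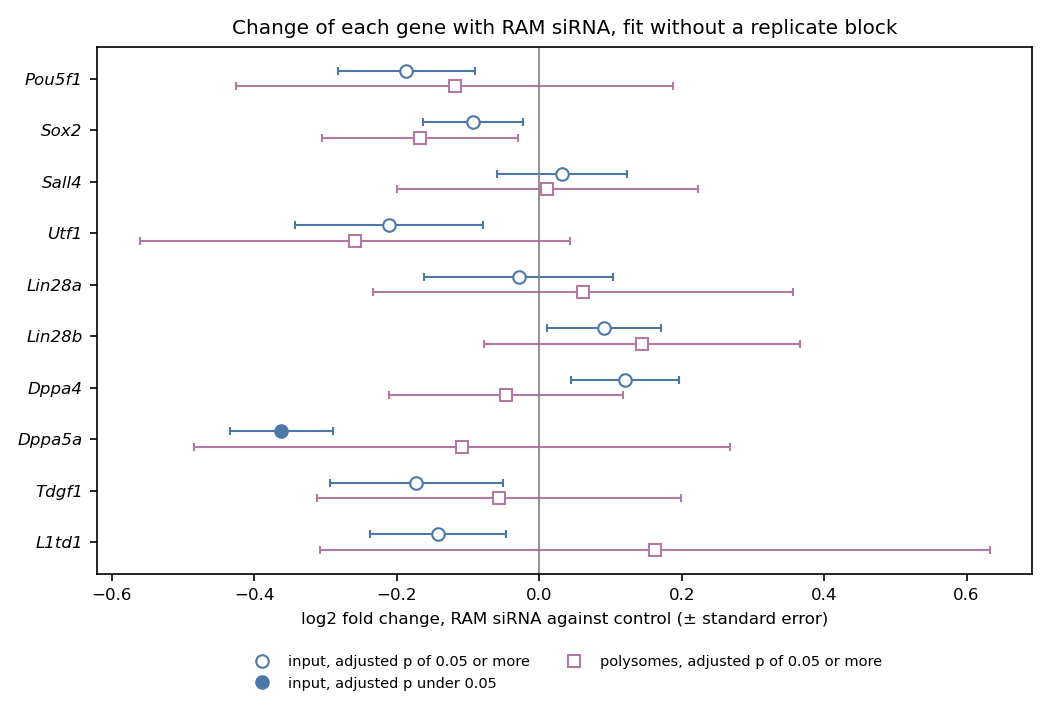
Log2 fold change of RAM siRNA against control for each gene in input (circles) and in polysomes (squares) with standard errors, from fits of 8 libraries without a replicate block. Only Dppa5a in input, at -0.36, has a filled marker for an adjusted p under 0.05, and standard errors are wider in polysomes for all 10 genes. With the replicate block, not drawn here, 5 genes were lower and 1 higher in input, where 19.0% and 20.3% of tested genes were.

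The change of polysome loading, the RAM siRNA effect in polysomes less that in input, was fitted over all 16 libraries. It passed for 0 of 10 members, and for 0% of all tested genes in either direction, in fits without and with the replicate block. Log2 values ran from -0.21 for Dppa4 to 0.27 for L1td1, each with an edgeR adjusted p of 0.9997 (1.00 with the block). These estimates were loose for most members. The 95% interval was narrowest for Sox2, from -0.44 to 0.19, around -0.13. It ran from -0.62 to 0.19 for Dppa4, from -0.71 to 0.73 for Pou5f1 and from -0.89 to 1.42 for L1td1. Those intervals come from the fit without a block. They show which changes of loading the data allow in that fit and are not a limit of detection. With the replicate number as a factor within each fraction they were narrower. They then ran from -0.39 to 0.30 for Pou5f1 and from -0.37 to 0.50 for L1td1.

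Between polysomes and input the members' log2 differences ran from -2.67 to 1.12 in control cells, and with RAM siRNA in input from -0.36 to 0.12. In control cells 5 members took a larger share of polysome than of input RNA (Utf1, Pou5f1, Dppa4, Dppa5a and Tdgf1), 3 took a smaller share (Lin28b, Lin28a and L1td1), and Sox2 and Sall4 did not pass. Of all tested genes 33.1% were higher and 34.3% lower, so calls in this comparison were common. These 8 calls held in each of 13 alternatives. In control cells 7 members did not overlap between input and polysomes, as did 61.0% of tested genes.

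Among the members with a larger share, Utf1 differed most. It had 75.5, 80.3, 62.5 and 93.0 CPM in input control and 151, 129, 165 and 247 CPM in polysome control, a log2 difference of 1.12 (SE 0.20, edgeR adjusted p = 0.000494). Only 6.8% of tested genes had a larger one. Pou5f1 had a log2 difference of 0.69 (SE 0.17, adjusted p = 0.00414) and rose in each pair, by 0.28 to 0.99. Dppa4 had 90.2, 90.9, 84.3 and 102 CPM in input control and 154, 133, 142 and 165 CPM in polysome control. Its pairs were close together, at 0.55 to 0.77, and the log2 difference was 0.66 (SE 0.12, edgeR adjusted p = 0.000387). Dppa5a (0.61, SE 0.20, adjusted p = 0.0160) and Tdgf1 (0.59, SE 0.14, adjusted p = 0.00311) were higher in 4 of 4 pairs by the same edgeR fit. Sox2 had a log2 difference of 0.03 with an interval from -0.22 to 0.29, and Sall4 of -0.03 with an interval from -0.37 to 0.31.

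The LIN28 genes had the smallest polysome share of the members. LIN28 proteins bind the precursors of let-7 miRNAs and block their processing, and let-7 in turn represses both LIN28 transcripts through their 3′ UTRs, so that each side of the loop holds down the other. Lin28a had 73.9, 75.4, 76.0 and 101 CPM in input control and 14.8, 21.1, 19.8 and 32.9 CPM in polysome control. All polysome libraries lay below all input libraries, with a log2 difference of -1.91 (SE 0.23, edgeR adjusted p = 2.16e-05), and 4.7% of tested genes had a lower value. Lin28b had 35.0, 35.7, 39.2 and 32.6 CPM in input control and 6.66, 6.67, 4.96 and 4.55 CPM in polysome control, from 80 to 126 counts per library. Its log2 difference was -2.67 (SE 0.15, edgeR adjusted p = 1.45e-07), a fall by 84.3%, and only 1.6% of tested genes had a lower value. In RAM siRNA cells the differences were -1.83 for Lin28a (SE 0.24) and -2.63 for Lin28b (SE 0.19), with adjusted p of 0.000202 and 4.78e-06 by the same test.

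The let-7 sites are shown because among the members only the LIN28 genes and Sall4 held a match. The let-7 miRNAs a, g and i of RefSeq on GRCm38.p6, written 5′ to 3′ with the seed (bases 2 to 8) in capitals, share that seed:
mmu-let-7a-5p: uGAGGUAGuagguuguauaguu
mmu-let-7g-5p: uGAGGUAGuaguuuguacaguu
mmu-let-7i-5p: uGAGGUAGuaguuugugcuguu
The complement of the seed, CTACCTC, was searched on the transcript strand of the 3′ UTR of the coding transcript with the longest coding sequence of each gene (GENCODE vM21, GRCm38). It was found 4 times in Lin28b, 2 times in Lin28a and 1 time in Sall4. The 3′ UTRs of 9.22% of 12077 tested genes hold it, a share not matched for UTR length. The members with a match also have the longest 3′ UTRs (4448 nt in Lin28b, 2778 nt in Lin28a and 1700 nt in Sall4). The next longest is that of Tdgf1 at 1104 nt, so the matches cannot be told apart from UTR length. The sites follow with the match in capitals, all on the minus strand of the chromosome and inside an annotated 3′ UTR:
Lin28a, chr4:134005189-134005211: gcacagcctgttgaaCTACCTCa
Lin28a, chr4:134004551-134004573: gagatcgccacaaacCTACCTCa
Lin28b, chr10:45381022-45381044: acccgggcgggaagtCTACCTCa
Lin28b, chr10:45378648-45378670: tatacttgttagtaaCTACCTCt
Lin28b, chr10:45378476-45378498: gtttacagcacatggCTACCTCc
Lin28b, chr10:45377060-45377082: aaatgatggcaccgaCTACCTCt
Sall4, chr2:168748940-168748962: agggctttaatttatCTACCTCa
Sall4 holds a match and had a polysome share close to its input share, unlike the LIN28 genes. The transcript model used for L1td1 has only 3 bases of 3′ UTR, so nothing can be read from its lack of a match. miRNA levels were not measured in these libraries.

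L1td1 was the third member with a smaller polysome share. It had 392, 398, 307 and 398 CPM in input control and 211, 311, 118 and 186 CPM in polysome control, and replicate 2 overlapped with the lowest input library. The log2 difference was -0.89 (SE 0.24, edgeR adjusted p = 0.00613).

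The members' polysome share went with the length of their transcripts. Across the 10 members Spearman's rho between transcript length and the polysome against input difference in control cells was -0.891, and with coding length it was 0.067. The length of L1td1 is doubtful, since its transcript model holds almost no UTR, and without L1td1 rho with transcript length was -0.883 over 9 members (chosen after seeing the data). Across 12125 tested genes with a coding transcript rho was -0.383 with transcript length. Genes share libraries and are not independent replicates, so these are descriptions. The median log2 difference was 0.58 for 2569 genes of 1000 to 2000 nt and -0.67 for 2336 genes over 5000 nt. Utf1 (1227 nt), Pou5f1 (1362 nt), Dppa4 (1479 nt) and Tdgf1 (1932 nt) belong to the first of these classes. Lin28b (5402 nt, of which 4448 nt are 3′ UTR) and Sall4 (5073 nt, of which 3201 nt are coding) belong to the second, and Lin28a has 3505 nt with 2778 nt of 3′ UTR. Between Lin28b and Sall4, of similar length, the log2 difference was -2.67 against -0.03. The part of length in the members' differences was not tested.

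**Figure D4:**
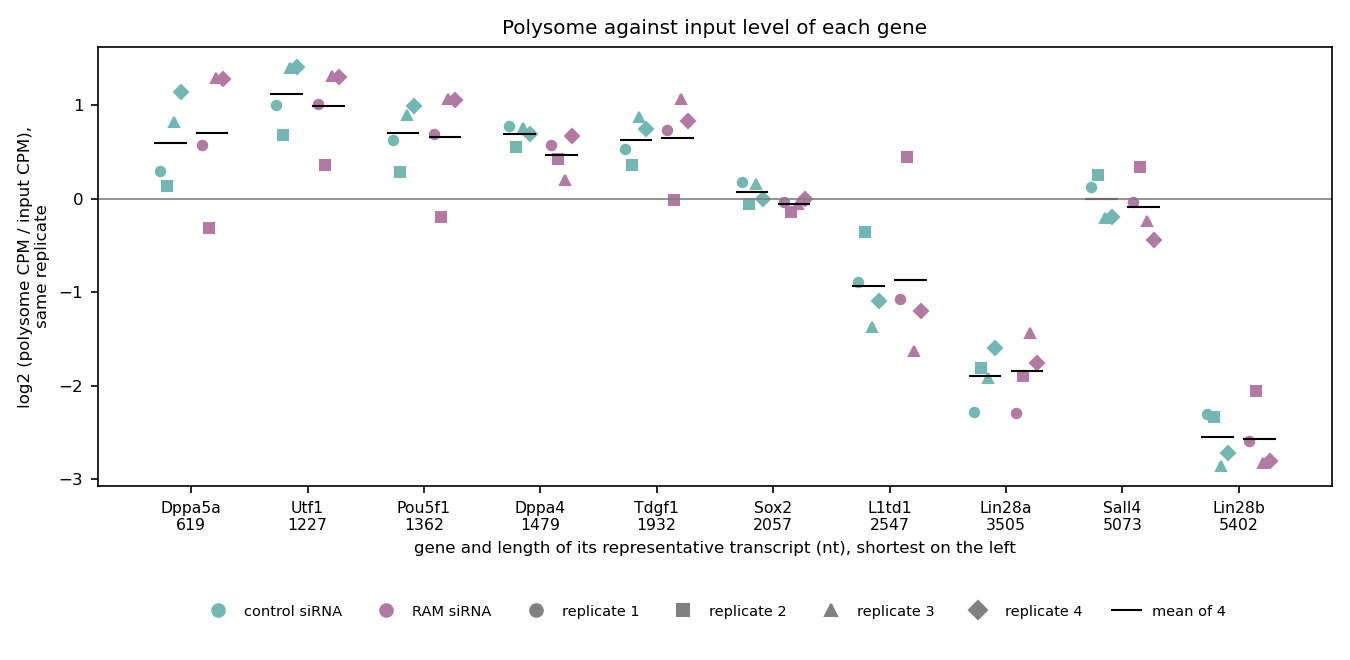
Log2 ratio of polysome CPM to input CPM for each gene in each pair of same-numbered libraries, for control and RAM siRNA cells, with genes ordered by transcript length (that of L1td1 from a model with almost no UTR) and lines at the mean of 4. Lin28a and Lin28b lie between -1.44 and -2.86 in all pairs, and replicate 2 of RAM siRNA cells lies below 0 for Dppa5a and Pou5f1 and above 0 for L1td1.

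In RAM siRNA cells 5 members were higher in polysomes than in input (Utf1, Dppa5a, Pou5f1, Tdgf1 and Dppa4) and 2 were lower (Lin28a and Lin28b), where 27.3% of tested genes were higher and 25.9% lower. Utf1 had a log2 difference of 1.07 (SE 0.27, edgeR adjusted p = 0.00707). Several of these calls were close to the threshold. The adjusted p was 0.0437 for Pou5f1, 0.0467 for Dppa5a, 0.0460 for Tdgf1 and 0.0282 for Dppa4 by edgeR. With the replicate block 3 members were higher and 3 lower, where 3689 of 12805 tested genes were higher and 3835 lower. Pou5f1 (adjusted p = 0.0523) and Dppa5a (adjusted p = 0.0724) no longer passed, and L1td1 did (adjusted p = 0.0450).

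Replicate 2 of polysome RAM siRNA stood apart from the other libraries of its group. It held 377 CPM of Pou5f1 where the others held 683 to 1011, 417 CPM of Dppa5a where they held 847 to 1297, and 1984 CPM of Tdgf1 where they held 2634 to 3895. In the same library L1td1 was at 487 CPM and 97.0 to 167 CPM in the others, and Sall4 at 316 CPM and 168 to 243 CPM in the others. Short members were thus low in it and most long ones high: rho between the members' transcript length and their deviation from the other 3 libraries was 0.818. Most other polysome libraries also deviated with length. In polysome control rho was 0.624, 0.915, -0.721 and -0.636 for replicates 1 to 4, and in polysome RAM siRNA it was 0.03, -0.588 and -0.806 for replicates 1, 3 and 4. Input libraries lay between -0.212 and 0.212. Each library is set against the other 3, so the deviations of a gene within a group balance out. A trend with length in 1 library pushes the others the opposite way, and the rho of a group are not independent.

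Without that library, L1td1 was also lower in polysomes of RAM siRNA cells, with a log2 difference of -1.30 in place of -0.60 (edgeR adjusted p = 7.34e-05 in place of 0.235). Dppa5a then reached 1.09 (adjusted p = 0.000175), Pou5f1 0.95 (adjusted p = 0.000473) and Tdgf1 0.85 (adjusted p = 0.00276) by the same test, so that 5 members were higher and 3 lower, as in control cells. That library was singled out by its values of L1td1, Dppa5a, Pou5f1 and Tdgf1. The smaller p of these same genes, and the likeness to control cells, are therefore no separate support. The RAM siRNA effect in polysomes still passed for 0 members. It turned from -0.12 to 0.10 for Pou5f1, from -0.11 to 0.15 for Dppa5a, from -0.06 to 0.11 for Tdgf1 and from 0.16 to -0.52 for L1td1 (edgeR adjusted p = 0.446). The same-numbered control library stayed in this fit, which had no block, and it too deviated with length (rho 0.915). With all libraries and the replicate block, the log2 fold changes were -0.18 for Pou5f1, -0.20 for Dppa5a, -0.11 for Tdgf1 and -0.02 for L1td1. Leaving out any other library of the RAM siRNA groups left 1 or 2 members higher in polysomes than in input of RAM siRNA cells. Those were input RAM siRNA replicates 1 to 3 and polysome replicate 1 (1 member each), and input replicate 4 and polysome replicates 3 and 4 (2 members each). Shares of all tested genes are not given here for any fit with a library left out, so these counts cannot be set against them.

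**Figure D5:**
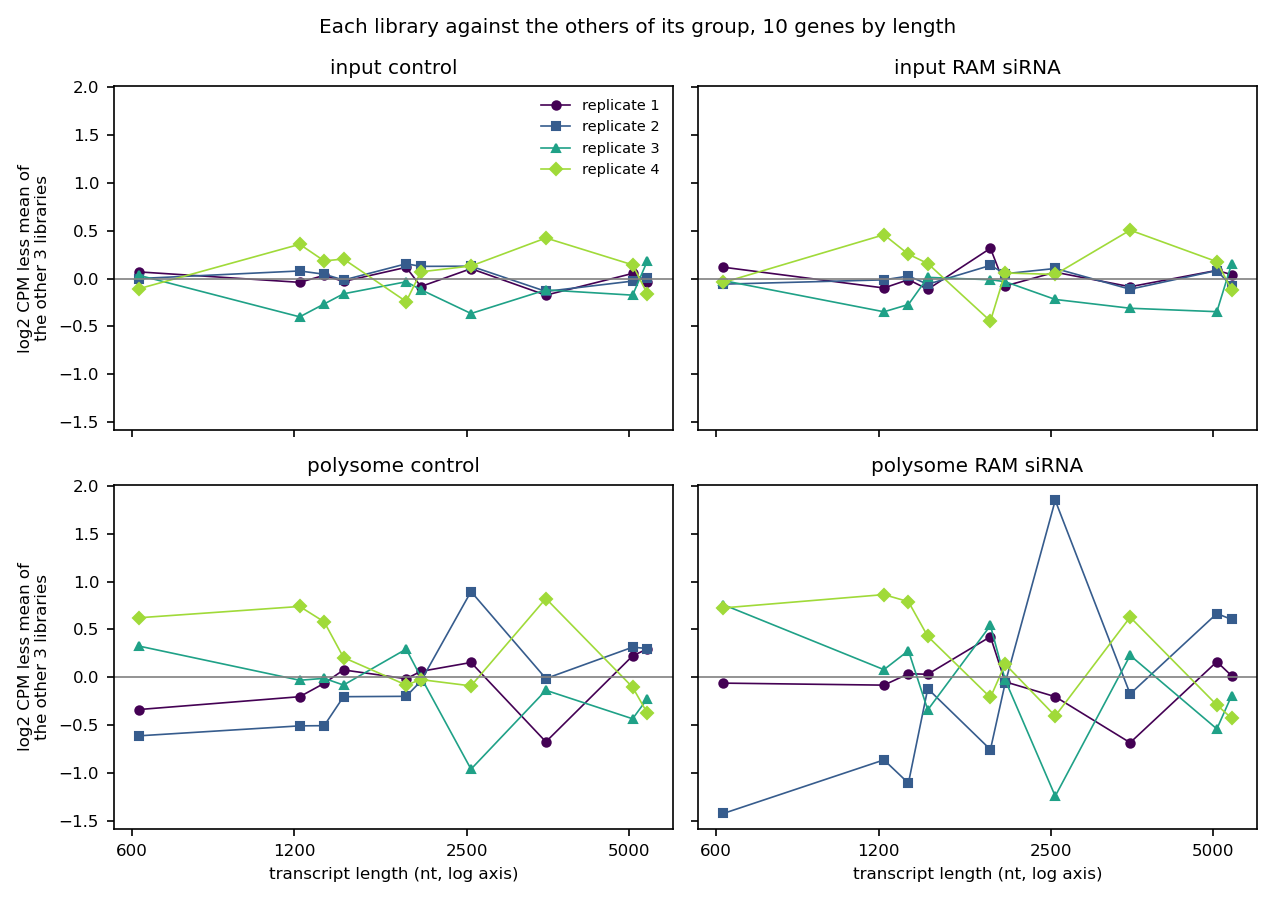
Difference in log2 CPM between each library and the mean of the other 3 of its group, for the 10 genes by transcript length on a log axis (L1td1 from a model with almost no UTR), in 4 panels by group. Input libraries stay near 0, while replicate 2 of both polysome groups is low for short members and high for L1td1, with 1.85 for L1td1 in polysome RAM siRNA.

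Genes of the pathways around the members were described from lists chosen by name. Their counts stand beside the same shares of all tested genes as for the members: in input 5.94% lower and 6.95% higher without the block and 19.0% lower and 20.3% higher with it, and in polysomes against input of control cells 34.3% lower and 33.1% higher. Of 26 other pluripotency network genes, 5 fell and 0 rose in RAM siRNA input without the block, with a median log2 fold change of -0.13, and 14 fell and 1 rose with it. Fgf4, a growth factor gene bound by Oct4 and Sox2, fell by 0.42 (log2, SE 0.09, edgeR adjusted p = 0.00809). Prdm14, a repressor of differentiation genes, fell by 0.52 (adjusted p = 0.0133) and the homeobox factor Nanog fell by 0.29 (adjusted p = 0.0205). With the block the 1 that rose was Lefty1, an inhibitor of Nodal, at 0.88 (edgeR adjusted p = 0.000127). In polysomes 0 of the 26 passed without the block and 1 fell (Prdm14) and 1 rose (Lefty1) with it.

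Of the 12 family paralogs of the members, 9 were tested and 2 fell in input without the block. Sox21, a relative of Sox2, fell by 1.08 (log2, SE 0.26, edgeR adjusted p = 0.0188) and Sox15 fell by 0.56 (SE 0.15, adjusted p = 0.0295). With the block 4 fell in input, Sall1 among them, and Sox21 and Sox15 fell in polysomes as well, by 1.23 and 0.67 on the log2 scale (edgeR adjusted p = 0.000101 and 0.00355). Sox2 itself did not pass in either fraction.

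Of 14 genes of the let-7 and LIN28 pathway, 0 passed in input without the block (2 fell by DESeq2) and 4 fell with it, where 19.0% of all tested genes fell, Dicer1 (log2 fold change -0.23), Trim71 (-0.23) and Igf2bp3 (-0.21) with the smallest p. In control cells 7 of the 14 were lower and 2 higher in polysomes than in input, with a median log2 difference of -0.54 against -0.001 over all tested genes. The 3 lower genes with the smallest p were Hmga2, Igf2bp1 and Trim71, which are let-7 targets, with log2 differences of -1.91, -1.53 and -2.22 (edgeR adjusted p = 5.18e-07, 1.05e-06 and 1.16e-06). The 2 higher genes were Mycn, a let-7 target as well, at 0.71 (edgeR adjusted p = 0.000264), and Drosha, the nuclear enzyme of miRNA processing, at 0.53 (adjusted p = 0.00128). These 5 were named after their values were seen.

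Of 15 genes of Cripto and Nodal signalling 13 were tested, and 0 passed in input without the block. With it 3 fell (Smad4, Furin and Foxh1) and 2 rose (Lefty1 and Lefty2, at 0.88 and 0.61 on the log2 scale), which is close to the shares of 19.0% and 20.3% among all tested genes. In control cells 8 of the 13 were higher in polysomes than in input and 3 were lower. The ligand genes Gdf3 and Nodal had log2 differences of 1.31 and 1.16 (edgeR adjusted p = 2.61e-06 and 1.84e-05) and the inhibitor Lefty2 of 0.90. The 3 lower genes were the receptor genes Acvr2b (-1.003) and Acvr1b (-1.24) and the signal transducer Smad3 (-0.86). These were named after their values were seen, as the 3 genes in each direction with the smallest p. Of 12 partners of SALL4, mostly NuRD subunits, 1 rose in input without the block: Rbbp7, a histone-binding subunit, at 0.34 (SE 0.10, edgeR adjusted p = 0.0376). With the block Gatad2a and Chd4 rose too, and Sall1 and Mta3 fell.

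The gene most like each member in its pattern was sought as the highest Pearson r of log2 CPM over the 16 libraries, among the 9140 tested genes averaging 10 CPM or more. It was Ube2c for Pou5f1 (r = 0.991), Rela for Sox2 (0.879), Ncoa3 for Sall4 (0.967), Dohh for Utf1 (0.995) and Rab31 for Lin28a (0.986). For Lin28b it was 1700020I14Rik (r = 0.998), for Dppa4 Ngrn (0.981), for Dppa5a Chchd3 (0.984), for Tdgf1 Tdgf1-ps1 (0.996) and for L1td1 Supt16 (0.992). These r describe all 4 groups together, since the libraries fall into input and polysome groups, and the lowest was that of Sox2.

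Some members share sequence with other genes, which could move reads between them. Tdgf1-ps1, a processed pseudogene on chromosome 16, is 98.8% identical to Tdgf1 over 512 bases and had 37472 counts over all libraries, 4.98% of those of Tdgf1. It moved with Tdgf1, with a log2 fold change of -0.19 in input against -0.17. Dppa5a matches Pigp over 417 bases at 95.9% identity, and Pigp had 7950 counts, 3.36% of those of Dppa5a. The Dppa4 pseudogene Gm14058 is 99.4% identical to Dppa4 over 532 bases and had 1.86% of its counts. Antisense or overlapping genes of Pou5f1, Sall4 and Lin28a (Gm19553, Gm14261 and Gm13061) had 86, 317 and 33 counts in all, and whether htseq-count used strand is not given in the sources used here.

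The members lie on 8 chromosomes of GRCm38. Lin28a (chr4:134003330-134018841) and L1td1 (chr4:98726734-98738480) share chromosome 4, and Dppa5a (chr9:78367052-78368177) and Tdgf1 (chr9:110939603-110946158) share chromosome 9. Pou5f1 (ENSMUSG00000024406) spans chr17:35506018-35510772 and Sox2 (ENSMUSG00000074637), a gene of 1 exon, spans chr3:34650405-34652461. Sall4 is at chr2:168748332-168767943, Utf1 at chr7:139943789-139945112, Lin28b at chr10:45376620-45486395 and Dppa4 at chr16:48283733-48294237.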

How the data were processed

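Reads came from cytoplasmic input and polysome RNA of ESCs, depleted of ribosomal RNA and sequenced in pairs. Per the study's methods and the submitters' processing notes, the authors ran FastQC on the reads, aligned them to GRCm38 (mm10) using STAR 2.5.1b and obtained counts per gene from htseq-count. They deposited raw counts without normalization. For htseq-count, neither the handling of strand and overlaps nor the annotation it used is given in the sources used here. The table holds no column of other samples.

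Samples were grouped by fraction and siRNA from the labels. The methods and the labels describe the transfection reagent and siRNA amount differently. A gene was tested where 10 or more of the 16 libraries reached 1 CPM, the filter of the study's methods. After TMM scaling, each contrast was tested by edgeR's quasi-likelihood method (edgeR 4.0.16, R 4.3.3). P-values were adjusted by Benjamini-Hochberg over all 12805 genes, and the threshold was 0.05. Comparisons within a fraction or siRNA used 8 libraries and the change of loading used 16. Intervals of 95% use Student's quantiles on 6 or 12 residual degrees of freedom. Single genes were also compared with two-sided exact permutation tests of log2 CPM with a pseudocount of 0.5.

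The main fit had no replicate block. The study was run on 4 independent occasions, and deviations of same-numbered libraries from their group means correlated across 9140 genes (Pearson r 0.400 to 0.797 for input, 0.625 to 0.944 for polysomes). The numbers were therefore taken to pair the samples, a pairing that the main fit and the alternatives without the block leave out. The fits were tested on simulated data with planted changes before use. Those data held no deviation shared by same-numbered libraries, so they cannot show how the fit without a block handles it.

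The members, the gene lists and the tests were chosen with earlier results of these data known. The genes named are the members, Ramac, up to 3 genes per list and direction with the smallest p among those past the threshold, and the gene most like each member. Alternatives were DESeq2 1.42.0, RLE scaling, no filter on low counts, edgeR's filterByExpr, the replicate block, all 16 libraries in 1 fit, and each library left out in turn. Transcript features come from GENCODE vM21, and copies were sought with blastn at 95% identity or more over at least 75 bases.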

Additional observations from a re-analysis of the deposited data

Results flagged for a closer look

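In 40 groups of 4 libraries (10 members in 4 groups), 2 held a library far from the other 3 by Dixon's criterion, which chance alone meets in about 1 in 20 groups. Lin28a was at 101.0 CPM in replicate 4 of input control, while the other 3 libraries had 73.9 to 76.0 CPM. L1td1 was at 307.2 CPM in replicate 3 of input control, where the others had 392 to 398 CPM. In input RAM siRNA the same-numbered libraries were also the highest for Lin28a, at 103 CPM, and the lowest for L1td1, at 302 CPM. No member passed the test of a different RAM siRNA effect in polysomes and input.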

How the results depend on the processing

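Over 770 values of single members under the alternatives, 667 kept their direction and side of the threshold, 28 lost the call, 7 gained it and 68 changed sign, all 68 being values that did not pass. With the replicate block 5 members were lower and 1 higher in input (1 and 0 without it), and 3 were higher in polysomes of RAM siRNA cells in place of 5. The block, the paired fit, also took the members lower there from 2 to 3, and the counts of members in the other comparisons were the same with it. In the fit of all 16 libraries 0 members were lower in input. With 1 library left out, between 1 and 5 members were higher in polysomes of RAM siRNA cells, in fits whose shares of all tested genes are not given. The cause was not tested. Under RLE scaling, DESeq2, no filter and filterByExpr these counts stayed within 1.5 times.

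Values that changed sign under a setting other than a left-out library lay between -0.041 and 0.104 on the log2 scale. For RAM siRNA in polysomes, Sall4 was 0.01 in the main fit and -0.035 without a filter, -0.013 with filterByExpr, -0.01 with the replicate block and -0.033 in the fit of 16 libraries, and L1td1 was -0.021 with the block. For the change of loading, Pou5f1 was -0.005 with the block, -0.041 with a block within each fraction and -0.038 with 1 by culture, Lin28b was -0.005, -0.001 and -0.01 in these, and Sall4 was 0.003 without a filter. For polysomes against input, Sall4 was 0.104 without a filter and 0.071 with filterByExpr in control cells, and 0.068 and 0.016 in RAM siRNA cells, where Sox2 was 0.077 and 0.028.

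Sign changes were larger, up to -0.522 for L1td1 in polysomes, where a library was left out. RAM siRNA values in input ran from -0.009 to 0.109 for Sall4 and from -0.169 to 0.088 for Lin28a. In polysomes they ran from -0.353 to 0.098 for Pou5f1, -0.166 to 0.112 for Sall4, -0.129 to 0.277 for Lin28a, -0.028 to 0.233 for Lin28b, -0.178 to 0.009 for Dppa4, -0.328 to 0.147 for Dppa5a, -0.237 to 0.111 for Tdgf1 and -0.522 to 0.435 for L1td1. For the change of loading the ranges were -0.205 to 0.223 for Pou5f1, -0.261 to 0.055 for Sall4, -0.358 to 0.122 for Utf1, -0.141 to 0.291 for Lin28a, -0.187 to 0.109 for Lin28b, -0.082 to 0.218 for Tdgf1 and -0.44 to 0.532 for L1td1. For polysomes against input Sall4 ran from -0.094 to 0.086 in control and from -0.254 to 0.039 in RAM siRNA cells.

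Of 250 counts for the gene lists under the alternatives, 26 moved by over 1.5 times, 15 of them under the replicate block. Without a filter, other network genes lower in input went from 5 to 8 and higher from 0 to 1, and Cripto and Nodal genes higher from 0 to 2. By DESeq2, let-7 and LIN28 genes lower in input went from 0 to 2, other network genes and paralogs lower in polysomes each from 0 to 1, and Cripto and Nodal genes higher in polysomes than in input of RAM siRNA cells from 4 to 7. There, SALL4 partners lower went from 1 to 0 under RLE scaling, no filter and filterByExpr, and paralogs lower from 2 to 1 under RLE scaling.

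Lin28b had the lowest depth, with 79 to 146 counts per polysome RAM siRNA library, and the spread between polysome libraries limits all results there.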

Other observations

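The 10 members together took 0.436% to 0.487% of all counts in input control and 0.383% to 0.441% in input RAM siRNA, lower in 4 of 4 pairs of same-numbered libraries. In polysomes they took 0.525% to 0.666% in control and 0.358% to 0.669% in RAM siRNA, with the lowest value in replicate 2. Tdgf1 made up the largest part of these counts.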
